A study of Mus musculus with 8 samples.

Results

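Axon guidance genes encode the secreted and surface-bound cues that steer growing axons, and the receptors that read them. The set described here is every row of the authors' deposited comparison whose gene name belongs to the semaphorins, plexins, neuropilins, netrins, netrin-G proteins, Unc5 and Dcc receptors, slits, Robo receptors, Eph receptors or ephrins. That gave 72 of 17171 rows, for 71 gene symbols, since Ntng1 has a pair of identifiers. Messenger RNA was sequenced from the hippocampus of C57BL/6 mice at 2 months of age. In 4 samples the genotype was Sumo2 f/f with Emx1-Cre (SUMO2-cKO), and in 4 it was Sumo2 f/f without Cre (control), so both groups carry the loxP-flanked Sumo2 alleles. Sumo2 encodes a small ubiquitin-like modifier that is attached to other proteins. Emx1-Cre is a recombinase driven from the Emx1 gene, which is active in the dorsal forebrain lineage, while interneurons, microglia and vessel cells of the hippocampus mostly lie outside it. The labels do not say whether the samples came from separate animals, so the spread behind every p-value may be technical.

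The 8 columns of values per sample could not be tied to the sample labels by name, so no value per sample is shown and depth per library was not analysed here. What follows rests on the log2 fold change of SUMO2-cKO over control in the authors' deposited table, with a standard error (SE) obtained by dividing it by the deposited statistic. A positive value means higher in the group labelled SUMO2-cKO. Sumo2 itself stood at 0.42 (SE 0.252, adjusted p = 0.761) per the authors' deposited table, so the targeted gene does not check the labels, and each direction is that of the labelled group. Its relative Sumo3 stood at 0.70 (SE 0.0934, adjusted p = 1.1e-10) there. A gene is called at an adjusted p under 0.05 over all 17171 genes.

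Slits are large secreted proteins that bind Robo receptors and mostly repel axons. Semaphorins act through plexins, with neuropilins as partners for the secreted class. Netrins attract through Dcc and repel through Unc5 receptors, while ephrins and Eph receptors signal in both directions between touching cells. In the adult hippocampus many of these proteins sit at synapses, on glia and on vessels, where they act on spines, branching and vessel wall.

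Of the 72 guidance rows 3 were called, all higher in SUMO2-cKO and all in the Slit and Robo pathway, which are Slit3, Robo1 and Slit1. Over all genes, 1.5% were called, 0.967% as higher and 0.53% as lower. No guidance gene was called lower. An unadjusted p under 0.05 was reached by 11 of the 72, with 6 higher and 5 lower, which is 15.3%, against 8.37% of all genes. The median log2 fold change of the 72 was -0.01 in the authors' deposited table, with 35 positive and 37 negative, and that of all genes was 0.00 to 2 decimals. The members were chosen with earlier results of these data known, so these counts are a description of the set.

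Slit3 had the largest rise among the called members. The authors' deposited table lists Slit3 at 0.29 on the log2 scale (SE 0.0444, 95% interval 0.20 to 0.37, adjusted p = 6.2e-08), which is 1.22-fold, or 22.1% more RNA in SUMO2-cKO. Its p-value ranked 26 among all genes. Slit3 (ENSMUSG00000056427) spans chromosome 11, 35121224 to 35708507, on the plus strand of GRCm38 in GENCODE M21. Robo1 encodes a receptor that slits bind through its outermost immunoglobulin domains. It was higher by 0.23 in the authors' deposited table (SE 0.0417, 95% interval 0.15 to 0.31, adjusted p = 9.4e-06), or 1.18-fold, at rank 41. Robo1 (ENSMUSG00000022883) lies on chromosome 16, 72308306 to 73046095, plus strand. Slit1, the slit whose expression is largely limited to the nervous system, was higher by 0.13 in the authors' deposited table (SE 0.0369, 95% interval 0.06 to 0.21, adjusted p = 0.0278), or 1.10-fold, at rank 195. Slit1 (ENSMUSG00000025020) lies on chromosome 19, 41600257 to 41743665, minus strand. None of these 3 changes reached 1.5-fold.

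The close relatives of the called genes did not pass the test. Slit2 stood at -0.06 (SE 0.0508, 95% interval -0.16 to 0.04, adjusted p = 0.961) per the authors' deposited table. Its interval overlaps neither that of Slit3 nor that of Slit1. Robo2, which lies next to Robo1 on chromosome 16, stood at -0.07 (SE 0.0549, 95% interval -0.18 to 0.04, adjusted p = 0.944) per the authors' deposited table, also apart from the Robo1 interval. The differences between these genes were not tested, since the covariance between them needs values per sample. Robo3, known for its part in midline crossing, stood at -0.25 (SE 0.129, 95% interval -0.50 to 0.01) per the authors' deposited table. Robo4, the receptor of blood vessel endothelium, stood at 0.17 (SE 0.208, 95% interval -0.24 to 0.58) in the same table. Over the 3 slits and 4 Robo genes, 4 values were positive and 3 negative.

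**Figure D1:**
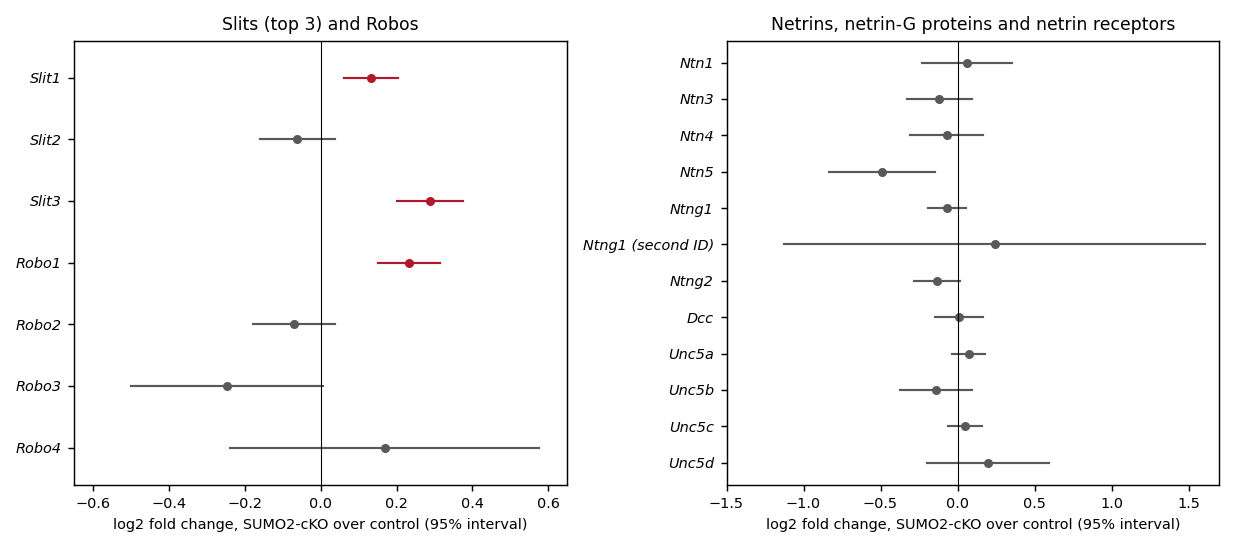
Log2 fold change of SUMO2-cKO over control in the authors' deposited table (points) with 95% intervals (lines) for slits and Robo receptors on the left and for netrins, netrin-G proteins and their receptors on the right, with red marking an adjusted p under 0.05. Slit3 at 0.29, Robo1 at 0.23 and Slit1 at 0.13 lie right of 0 with narrow intervals, while Slit2 and Robo2 lie just left of it, and no gene on the right is called.

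The introns of Slit3 and Slit2 each hold a copy of the microRNA gene Mir218, and the mature product is shown because 1 host gene was called and the other was not. Mir218-2 lies in Slit3 at chr11:35616816-35616925 and Mir218-1 in Slit2 at chr5:48223942-48224051, each on the strand of its host (RefSeq, GRCm38.p6). Both give the same 5-prime arm, with the seed (bases 2 to 8) in capitals. The microRNA was not measured here, and the fold changes are those of the host messenger RNAs.
mmu-miR-218-5p: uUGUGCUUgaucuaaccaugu

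Promoter sequence is shown for Robo1, the called receptor, and for Epha4, the member with the smallest p-value among those lower. Each window is the 250 bases before the RefSeq start site (GRCm38.p6). The Robo1 window is chr16:72662899-72663148, plus strand, and touches no Robo1 exon of GENCODE M21, whose longest form starts further upstream. The Epha4 window is chr1:77515089-77515338, minus strand. Both strands were searched for 4 short motifs, whose matches are in capitals. The first, the TATA box, was taken as TATAAA. The second, the GC box bound by Sp1-type factors, was taken as GGGCGG. The third, the E-box of helix-loop-helix factors, was taken as CACGTG. The last, the cAMP response element, was taken as TGACGTCA. Overlapping matches were counted separately.
Robo1: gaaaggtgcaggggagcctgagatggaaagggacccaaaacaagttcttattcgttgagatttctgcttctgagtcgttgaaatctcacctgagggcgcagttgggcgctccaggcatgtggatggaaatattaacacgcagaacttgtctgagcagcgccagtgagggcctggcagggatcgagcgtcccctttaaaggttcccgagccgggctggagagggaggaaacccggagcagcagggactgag
Epha4: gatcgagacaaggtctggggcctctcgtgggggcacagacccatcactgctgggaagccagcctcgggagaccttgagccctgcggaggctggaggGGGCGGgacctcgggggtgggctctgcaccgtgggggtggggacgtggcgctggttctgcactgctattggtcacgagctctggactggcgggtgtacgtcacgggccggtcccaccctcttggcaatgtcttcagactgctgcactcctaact

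The Epha4 window holds 1 GC box and the Robo1 window holds no match to these letters. The corresponding 250 bases of Slit3 hold 6 GC boxes and 35 CG pairs, against 11 CG pairs for Robo1 and 14 for Epha4. They are not printed, since 232 of them lie in an exon of Slit3 in GENCODE M21. Over the 77 promoter windows of 61 guidance genes, 54 (70.1%) hold a GC box, against 54.6% of 14479 windows of coding genes in the table and 32.7% of all 32851 windows. TATAAA is in 2 of the 77 (2.60%), against 6.86% of windows of coding genes in the table and 12.4% of all windows. CACGTG is in 4 of the 77 (5.19%), against 7.85% of windows of coding genes in the table, and TGACGTCA in 1 of the 77 (1.30%), against 2.40%. The median number of CG pairs was 15 in guidance windows and 14 in windows of coding genes in the table. The median share of G and C bases was 64.4% in guidance windows and 59.2% in those of coding genes. The part of base composition in these motif shares was not tested. These are matches of letters, which say nothing of binding.

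Eph receptors are receptor tyrosine kinases, and none of the 14 was called. Epha4, which binds ephrins of both classes and sits on dendritic spines of hippocampal neurons, came nearest. The authors' deposited table gives it -0.19 (SE 0.0580, 95% interval -0.30 to -0.08, adjusted p = 0.0622), or 0.876-fold. It lies on chromosome 1, 77367185 to 77515088. Epha10, a member without an active kinase, stood at 0.25 (SE 0.0930, adjusted p = 0.207) per the authors' deposited table, and 79 bases of 1 of its exons overlap an antisense RNA. Ephb1, which helps axons turn away at the optic chiasm, stood at -0.26 (SE 0.113, adjusted p = 0.407) and Ephb4, a receptor of venous endothelium, at 0.26 (SE 0.118, adjusted p = 0.453) per the authors' deposited table. Epha3, a receptor of A-type ephrins, stood at -0.12 (SE 0.0807, adjusted p = 0.867) in the same table. The 14 Eph receptors split evenly, with 7 positive and 7 negative values and a median of -0.01 in the authors' deposited table. The lowest value, -0.66 for Epha1, has an SE of 0.884 and an interval from -2.40 to 1.07, so that neither direction can be told from these samples.

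Ephrins are the ligands of Eph receptors. The A-type ephrins are held in the membrane by a lipid anchor and the B-type span it. None of the 8 was called or had an unadjusted p under 0.05, and their median was 0.03 in the authors' deposited table, with 5 positive. Among A-type ephrins the smallest p-value was that of Efna2, at 0.17 (SE 0.121, adjusted p = 0.909) per the authors' deposited table. Among B-type ephrins it was that of Efnb1, at 0.11 (SE 0.104, adjusted p = 0.994) in the same table. Efna3, an ephrin of astrocytes that binds Epha4 at hippocampal spines, stood at 0.05 (SE 0.0745) per the authors' deposited table.

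The secreted semaphorins of class 3 repel axons through neuropilins and plexins. Of the 7, 6 had a negative value and none was called, with a median of -0.10 in the authors' deposited table. Sema3e, which binds Plxnd1 without a neuropilin, stood at -0.18 (SE 0.0787, 95% interval -0.34 to -0.03, adjusted p = 0.400) per the authors' deposited table. Its receptor Plxnd1 stood at 0.25 (SE 0.142, 95% interval -0.03 to 0.53, adjusted p = 0.707) there. Sema3b had the widest interval of the class, at -0.36 (SE 0.336, 95% interval -1.02 to 0.30) per the authors' deposited table. The neuropilins, which hold class 3 semaphorins and also a growth factor of blood vessels, were near 0, with Nrp1 at -0.02 (SE 0.0529) and Nrp2 at -0.03 (SE 0.0605) per the authors' deposited table.

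Semaphorins of classes 4 to 7 are bound to the membrane. Of the 13, 7 were positive and none was called, with a median of 0.00 to 2 decimals in the authors' deposited table. Sema4f, a neuronal semaphorin found at synapses, stood at 0.15 (SE 0.0498, 95% interval 0.05 to 0.24, adjusted p = 0.138) per the authors' deposited table, the smallest p-value of the class. Sema4a followed at 0.13 (SE 0.0736, adjusted p = 0.683) in the same table. Across the 6 measured genes of class 4 the median was 0.06 with 4 positive, and across the 4 of class 6 it was 0.02 with 3 positive, in the authors' deposited table. Sema6b was the most closely fixed at no change, at 0.00 (SE 0.0440, 95% interval -0.09 to 0.09) in that table.

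Plexins carry the semaphorin signal across the membrane, and none of the 9 was called. Their median was 0.02 in the authors' deposited table. The 4 plexins of type A, the partners of neuropilins, lay between -0.07 and 0.05 there. Plxna2, which takes part in the layering of mossy fibres in the hippocampus, stood at -0.01 (SE 0.0413, 95% interval -0.09 to 0.07) per the authors' deposited table. Plxnb3, a receptor of Sema5a, stood at -0.31 (SE 0.130, 95% interval -0.57 to -0.06, adjusted p = 0.342) per the authors' deposited table, with Plxnb1 at 0.04 and Plxnb2 at 0.02. Its interval overlaps those of Plxnb1 and Plxnb2, and the differences were not tested.

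**Figure D2:**
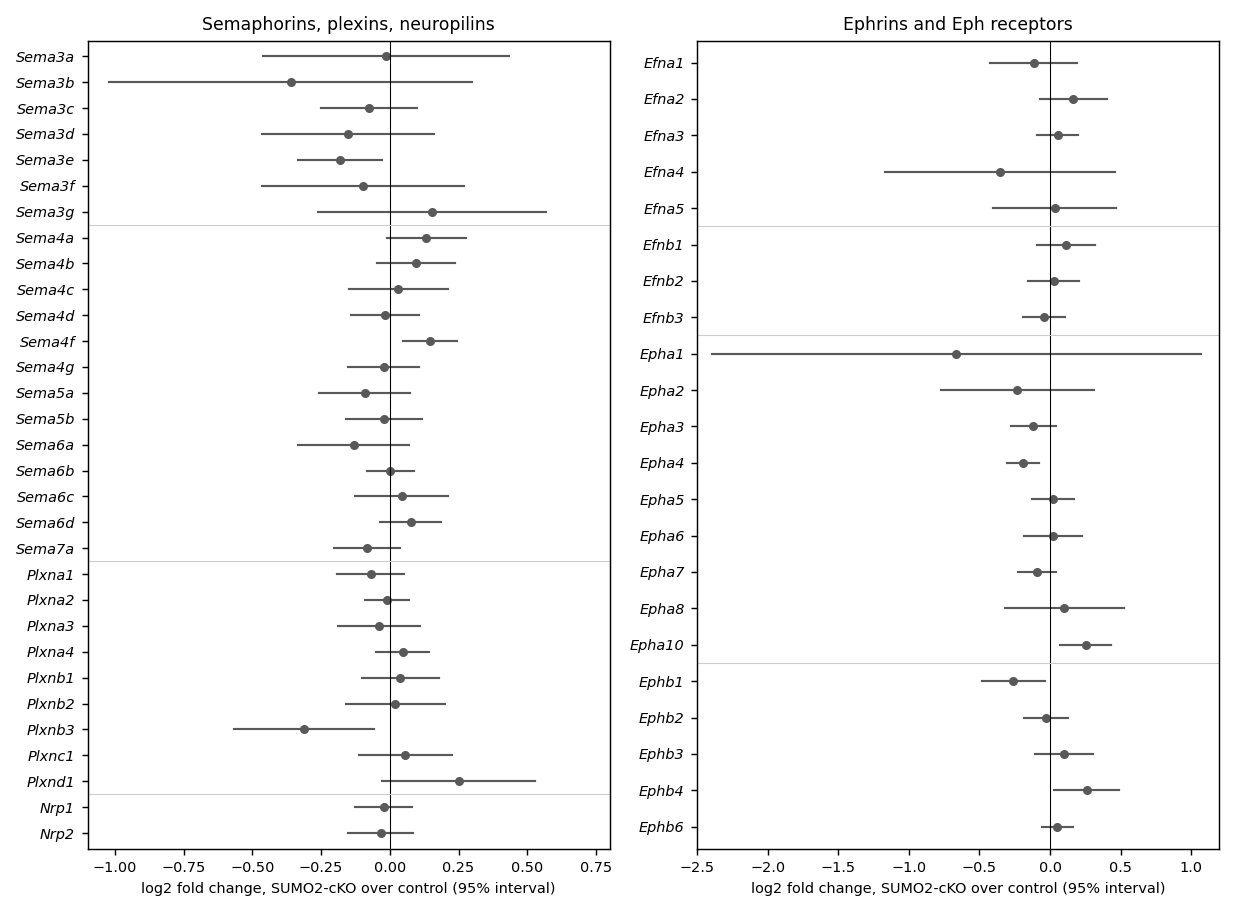
Log2 fold change of SUMO2-cKO over control in the authors' deposited table (points) with 95% intervals (lines) for semaphorins, plexins and neuropilins on the left and for ephrins and Eph receptors on the right, with grey rules between families. None of these genes is called, most intervals include 0, and Epha1 has the widest interval, from -2.40 to 1.07.

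Netrins and their receptors also held no called gene. Ntn5, a short secreted netrin, had the lowest value of the netrins, at -0.49 (SE 0.176, 95% interval -0.84 to -0.15, adjusted p = 0.176), per the authors' deposited table. An exon of Ntn5 shares 407 bases with Sec1 on the opposite strand, and Sec1 stood at -0.45 (SE 0.288, adjusted p = 0.831) per the authors' deposited table. The libraries were stranded, but the sources used here do not give the strand setting of the counting, so reads of these genes may not be separable. In all, 18 members have an exon that overlaps one of another gene, 14 on the opposite strand and 4 on the same. Epha10, Ephb1, Ephb4 and Epha1 are among the 14. Ntn1, the classical netrin, stood at 0.06 (SE 0.150), and Dcc, its attractive receptor, at 0.01 (SE 0.0804, 95% interval -0.15 to 0.17) per the authors' deposited table. Among the Unc5 receptors, Unc5a had the smallest p-value, at 0.07 (SE 0.0533, adjusted p = 0.919), and Unc5b the lowest value, at -0.14 (SE 0.118), in the authors' deposited table. The lipid-anchored netrin-G proteins organise synapses along dendrites. Ntng2 stood at -0.14 (SE 0.0766, adjusted p = 0.707), with 15.2% of its 50-base windows shared with an RNA on its own strand. Ntng1 stood at -0.07 (SE 0.0627) under the identifier found in GENCODE M21 and at 0.24 (SE 0.698) under the other, in the authors' deposited table.

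The precision of these values varied with the gene. The SE of the 72 rows ran from 0.0369 for Slit1 to 0.884 for Epha1, and 43 did not exceed 0.0940, the median over all genes. Each of the 3 called genes was among those 43. For 36 of the 72 the 95% interval lay within a 1.2-fold change in either direction, against 49.3% of all genes. For 65 (90.3%) it lay within 1.5-fold, against 72.9% of all genes. The remaining 7 rows cannot exclude a change of 1.5-fold.

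**Figure D3:**
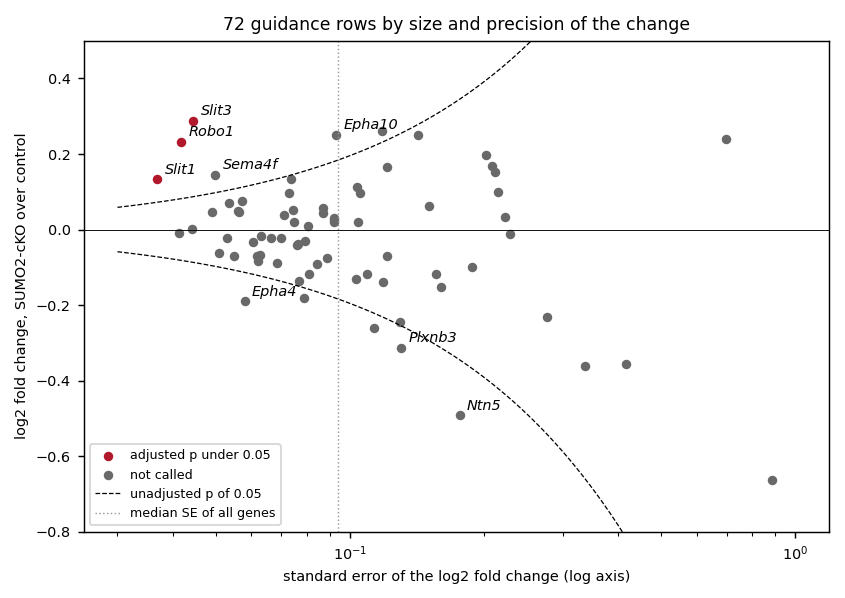
Log2 fold change of SUMO2-cKO over control in the authors' deposited table (vertical axis) against its standard error (horizontal log axis) for the 72 guidance rows, with red for an adjusted p under 0.05, dashed curves at an unadjusted p of 0.05 and a dotted line at the median SE of all genes, 0.0940. Slit3, Robo1 and Slit1 lie at the left, with small errors and positive values, and the points spread in both directions as the error grows.

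The 38 rows of ligand families had a median of -0.02 with 17 positive and 2 called, and the 34 of receptor families a median of 0.01 with 18 positive and 1 called, in the authors' deposited table. Guidance genes are longer than most, with a median of 57.5 kb over the 70 rows found in GENCODE M21, against 22.3 kb for all genes. Slit3 (587 kb) and Robo1 (738 kb) are among the 19 members over 200 kb. Those 19 had a median of 0.01 in the authors' deposited table, and these 2 genes were the 2 called (10.5%). Over 955 genes of that length the median was -0.01 and 2.41% were called. The 14 members of 100 to 200 kb, Slit1 among those, had a median of -0.03 and 1 called (7.14%). Over 1418 genes of that length the median was -0.01 and 2.54% were called. Among the 34 members under 50 kb 0 were called, against 1.31% of all genes of that length. Among the 3 of 50 to 100 kb 0 were called, against 1.51%. The median SE of all genes was 0.103 under 50 kb and 0.0752 over 200 kb. The part of gene length in the calls was not tested. The longest member, Dcc at 1097 kb, stood at 0.01. No transcript window of 50 bases in Slit1, Slit3, Robo1 or Epha4 occurs in another gene. None of their exons overlaps an exon of another gene.

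Further genes of the guidance pathways showed no called change. The 3 lists together held 92 rows, with 0 called, against 1.5% of all genes. At so low a share, 0 of 92 says little about these genes. An unadjusted p under 0.05 was reached by 10 of the 92 (10.9%), against 8.37% of all genes. The median of the 92 was -0.01 in the authors' deposited table. Among 25 further cues and partners, Lrrc4c, the synaptic partner of Ntng1, stood at -0.13 (SE 0.0544, adjusted p = 0.382) per the authors' deposited table. Rgma, a repulsive ligand of neogenin, stood at -0.14 (SE 0.0588, adjusted p = 0.405) there. Among 60 rows of intracellular effectors, Dpysl4, of the collapsin response mediator family, stood at 0.14 (SE 0.0470, adjusted p = 0.113) per the authors' deposited table. Chn2, which switches off Rac downstream of neuropilin 2 in hippocampal axons, stood at -0.34 (SE 0.124, adjusted p = 0.197) in that table. Among 7 proteases that cut ephrins or Dcc, Adam10 stood at -0.06 (SE 0.0418, adjusted p = 0.843) and Ncstn, a subunit of gamma-secretase, at -0.07 (SE 0.0524, adjusted p = 0.926) per the authors' deposited table.

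Some lists of markers of other cell types held called genes, and others had a median away from 0 with none called. In whole tissue, fewer cells of a type and less RNA per cell cannot be told apart. All 12 oligodendrocyte markers were negative, with a median of -0.43, a range from -0.55 to -0.32 and 3 called lower, in the authors' deposited table. Of 6 markers of oligodendrocyte precursors 5 were negative, with a median of -0.16, a range from -0.30 to 0.06 and 1 called lower, Olig1, in the authors' deposited table. The 5 guidance genes listed as expressed in that lineage were Plxnb3, Sema6a, Sema5a, Efnb3 and Sema4d, a list chosen with earlier results known. All 5 were negative, with a median of -0.09 and none called, and of all 72 guidance rows 37 were negative. Plxnb3 alone of the 5 had an unadjusted p under 0.05. Sema4d stood at -0.02 (SE 0.0631), Efnb3 at -0.04 (SE 0.0759), Sema5a at -0.09 and Sema6a at -0.13 in the authors' deposited table. These point values lay outside the range of the oligodendrocyte markers and inside that of the precursor markers. The interval of Sema6a, from -0.33 to 0.07, reaches the oligodendrocyte range, while those of Sema5a, Efnb3 and Sema4d do not. The precursor range spans 0, so genes with little change fall inside it whatever cells express them. Slit2 at -0.06 and Robo2 at -0.07, which are not on the list, also lay inside it. Whether a value inside that range ties a gene to precursors was not tested. The point value of Plxnb3, -0.31, lay just outside both ranges, but its interval, from -0.57 to -0.06, overlaps both. Plxnb3 can therefore not be placed outside either range. Of 11 endothelial and mural markers 9 were positive, with a median of 0.12 and none called. Of 7 meningeal and fibroblast markers all were positive, with a median of 0.35, SEs from 0.168 to 0.400 and none called. The 9 guidance genes listed as vascular had a median of 0.03, with 5 positive, in the authors' deposited table. The 6 neocortex markers were all positive with a median of 0.08, Cux2 being called at 0.37 in the authors' deposited table. Of 6 thalamus markers 5 were negative, with a median of -0.13 and 1 called lower, Plekhg1 at -0.58, in the authors' deposited table. Of 5 striatum markers 3 were negative, with a median of -0.02 and 1 called higher, Penk at 1.14, in the same table. The called guidance genes Slit3, Robo1 and Slit1 were higher in the same samples. Of 11 markers of hippocampal excitatory neurons 4 were positive, with a median of -0.02 and 1 called lower. All 11 are among the genes tested, as are all 6 markers of thalamus and all 6 of neocortex, so their presence does not check the labelled tissue. No marker was called among those of astrocytes (4 of 6 positive, median 0.04), microglia (4 of 6 negative, median -0.03), inhibitory neurons (5 of 7 negative, median -0.07) or choroid plexus (5 of 5 negative, median -0.26) in the authors' deposited table. The choroid plexus markers had SEs from 0.448 to 0.616, which exceed the size of the lowest value among them, -0.32. The part of these lists in the guidance results was not tested.

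**Figure D4:**
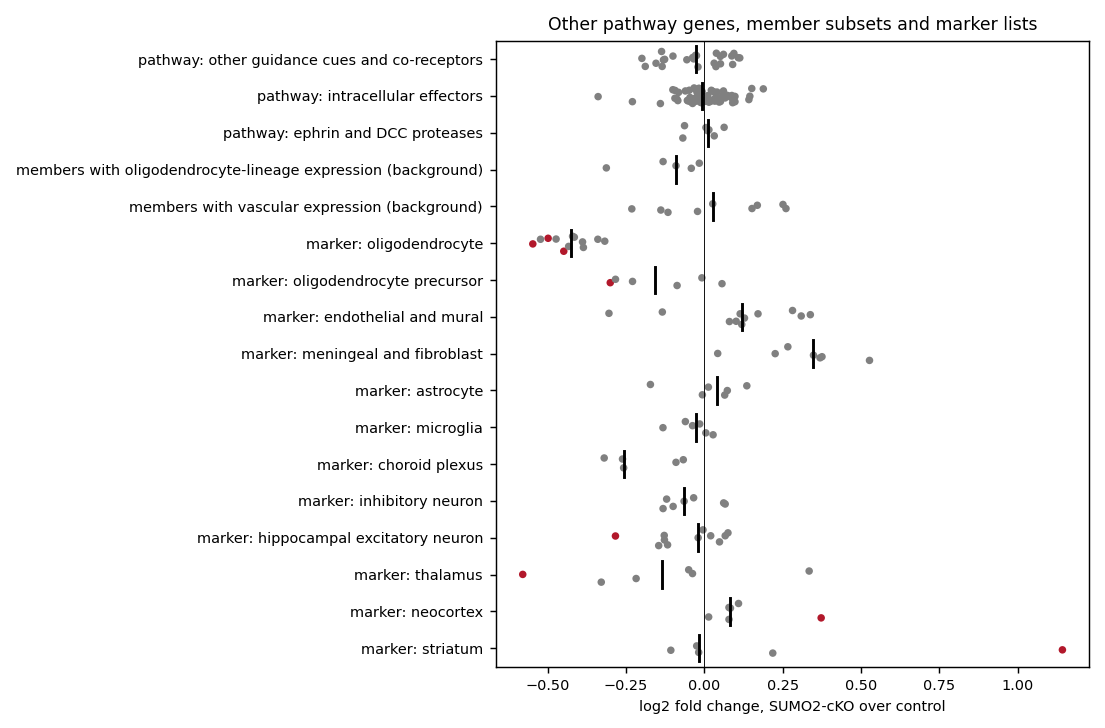
Log2 fold change of SUMO2-cKO over control in the authors' deposited table (points, 1 per gene row) for other genes of the guidance pathways, for guidance genes by known expression, and for marker lists, with black bars at list medians and red for an adjusted p under 0.05. The pathway lists centre near 0, oligodendrocyte markers have a median of -0.43 and meningeal markers one of 0.35.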

How the data were processed

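RNA from hippocampus was made into libraries with a stranded messenger RNA kit, per the labels' protocols. The authors used Trim Galore and cutadapt, then STAR, HTSeq and DESeq2, per the submitters' processing notes. Their versions, the build, the gene annotation and the strand of counting were not given in the sources used here. Per the file headers, the authors deposited for each gene a log2 fold change of KO over WT with a Wald test statistic (a score), and its p-value before and after adjustment. No source used here says whether the fold changes were shrunken. The SEs, intervals and precision counts given here assume that fold change and statistic come from the same fit. They would not hold if the fold changes were shrunken after the test. The 8 columns of normalized values carry names that match no sample label, and they were used in no step.

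No gene-level test of samples was run, so calls are those of the authors' test at an adjusted p under 0.05. A count test needs columns tied to samples and was therefore left out. Dividing the log2 fold change by the statistic gave the SE, from which normal 95% intervals were made. The adjustment, recomputed by Benjamini-Hochberg over 17171 genes, differed from the deposited values by at most 9.6e-15, and was tested on simulated data. The members and gene lists were chosen with earlier results of these data known. Of all genes, 16955 matched GENCODE M21 (GRCm38) by identifier, used for coordinates, lengths and transcript sequence, and 216 did not, Ntn3 among those. Promoter and microRNA sequences are from RefSeq (GRCm38.p6).

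Named genes were every called member, the member with the smallest p-value in each of 13 families, the 5 largest changes in each direction among members with an SE at or below the median, and from each pathway list the called genes and the 2 with the smallest p-value. Other genes were named after their values were seen. Python 3.11.15, pandas 2.3.3, scipy 1.17.1 and matplotlib 3.10.9 were used.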

Additional observations from a re-analysis of the deposited data

How the results depend on the processing

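The 3 called guidance genes became 4 at an adjusted p under 0.1 and 4 with statistics divided by their null standard deviation of 0.973, in both cases by the addition of Epha4 as lower. They were 2, Slit3 and Robo1, at an adjusted p under 0.01 and with Bonferroni. With a fold of at least 1.5 they were 0, since no called member changed by that much, while 67 of all genes remained against 257. Restricting the test to 15416 coding genes, or to genes with an SE of at most 0.25, gave 3. Other genes of the guidance pathways had 0 calls in each of these settings. The median of the 72 members was -0.01, and between -0.01 and 0.02 under the 4 other ways of summarising it (precise members alone, without oligodendrocyte-lineage or vascular members, and a weighted mean). Its sign was not the same in all of these. The median of members over 200 kb stayed at 0.01 among precise members. No paired analysis was possible because no column of values could be tied to a labelled replicate. Other normalizations, other tools, filters, pseudocounts and leaving out each replicate had been planned and were not run, for the same reason. What depth limits shows only in the SE.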

Other observations

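Slit3 lies on the chromosome of Sumo2, 79.8 Mb away, and 2 further guidance genes share it, Efnb3 at 46.0 Mb and Ntn1 at 47.1 Mb. Of the 3, Slit3 alone was called in the authors' deposited table. Emx1, the gene whose promoter drives Cre, stood at -0.27 (SE 0.112, adjusted p = 0.352) in that table and has 6 guidance genes on its chromosome. Sema4f is the nearest, at 2.25 Mb, with a log2 fold change of 0.15 (SE 0.0498, adjusted p = 0.138) per the authors' deposited table, and Plxna1 follows at 4.11 Mb, with -0.07 (SE 0.0617). None of those 6 was called.

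Of 8 genes within 1 Mb of Slit3 none was called, with a median of 0.00 to 2 decimals in the authors' deposited table. The 1 gene within 1 Mb of Robo1 is Robo2. Of 35 genes within 1 Mb of Slit1, 1 was called as higher, Tll2, and the median was 0.00 to 2 decimals in the same table.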
